A study of Homo sapiens with 12 samples.

Results

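QKI (Quaking) is an RNA-binding protein, and its contacts with the transcript of its own gene were examined here. The members are the places on the QKI transcript at which clusters of reads were called with endogenous QKI protein. They were chosen by name, as the endogenous clusters that the deposited annotation assigns to QKI. There were 108 such clusters in endogenous library 1 and 77 in library 2. Merging clusters that shared a base on the same strand gave 139 QKI loci, of 493706 loci over all genes. By the deposited annotation, 115 of the 139 lay in a distal intron, 4 in a proximal intron (close to a splice site), 16 in the 3′ UTR, 1 in the 5′ UTR, 1 at a splice site and 2 in coding exons.

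QKI belongs to the STAR family of proteins, which bind RNA through a KH domain. It regulates alternative splicing in the nucleus, and in the cytoplasm it acts on the stability and translation of mRNAs through their 3′ UTRs. The gene gives rise to several protein isoforms that differ in their C-terminal ends through alternative last exons, of which QKI-5 is the nuclear one, and QKI proteins are known to act on the processing of QKI RNA itself.

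The measurements come from enhanced crosslinking and immunoprecipitation (eCLIP), in which protein is fixed to RNA by UV light, pulled down with an antibody, and the RNA attached to it is sequenced together with an input fraction of matching size. In all 3 groups of 2 immunoprecipitation libraries the labels name the cell line HEK293xT, while their protocols write 293T or HEK293T, an established human embryonic kidney line. Mutant cells received, by transient transfection, 10 µg of plasmid for myc-tagged QKI-5 carrying the substitutions K120A and R124A. Wild type cells received the same amount of plasmid for myc-tagged QKI-5 without them. Both were cultured for 72 hours and precipitated with anti-MYC antibody. Endogenous samples were unmodified cells precipitated with anti-QKI antibody. All 3 groups were crosslinked at 254 nm with 400 mJ/cm2. Transfected cells still carry their own QKI gene, and the plasmid adds QKI coding sequence, so at coding exons RNA from the plasmid and from the gene cannot be told apart. Coding exons are therefore given separately. Tagged and endogenous groups differ in both antibody and transfection. Nothing in the labels says that both libraries of a group came from cultures grown apart. Tests between groups therefore speak only for these libraries, whose spread may be technical.

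The 6 libraries held 231814 and 272728 clusters for mutant, 226962 and 273269 for wild type, and 384347 and 231844 for endogenous. The authors give each cluster a −log10 p and a log2 fold over input. A locus was called enriched in a library when both were at least 3 at its cluster. Clusters with a log2 fold of 0 or less do not appear in the tagged libraries, so a locus not listed was either without a cluster or not above input. The sources used here do not give read depth, and the amount of QKI RNA in each culture was not measured apart from the input, so fewer transcripts and less protein per transcript cannot be told apart. The series' design note speaks of cardiomyocyte differentiation of embryonic stem cells, unlike the sample labels. Endogenous loci were found on 0 of 7 pluripotency marker genes, on 2 of 7 cardiomyocyte genes (ACTN2 and RYR2) and on 5 of 7 genes listed for HEK293 cells. Of 121 cardiomyocyte gene loci 1, on ACTN2, was enriched in both endogenous libraries, and of 46 loci of the HEK293 genes 0. POU5F1 and NANOG, which define pluripotent cells, and TNNT2, MYH6 and MYH7 of cardiomyocytes had no locus. LHX1 and KRT18 of the HEK293 genes had no locus either.

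The QKI loci spanned hg19 chromosome 6 from 163835782 to 163996035 on the plus strand, 160254 bases. The annotation places each of the 108 and 77 clusters also in an intron of LINC00574 on the same strand, so reads from an overlapping transcript could not be separated from QKI reads. No library had a cluster on the opposite strand in this span. Endogenous library 1 gave its 108 clusters log2 folds between −1.74 and 5.67 with a median of 0.58, and 26 of them lay at or below 0. Endogenous library 2 gave its 77 clusters log2 folds between −0.85 and 6.16 with a median of 1.15, and 6 lay at or below 0. Most QKI clusters were thus weak, and 83 and 57 of them had a −log10 p under 1. The folds were also coarse, with 53 distinct values among the 108 clusters and 32 among the 77. Over the 38 loci listed in both endogenous libraries the log2 folds had a Pearson r of 0.783 and a Spearman rho of 0.760, given as a description across loci of 1 gene, which share their libraries and transcript. The median absolute difference between the libraries at those loci was 0.94.

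**Figure D1:**
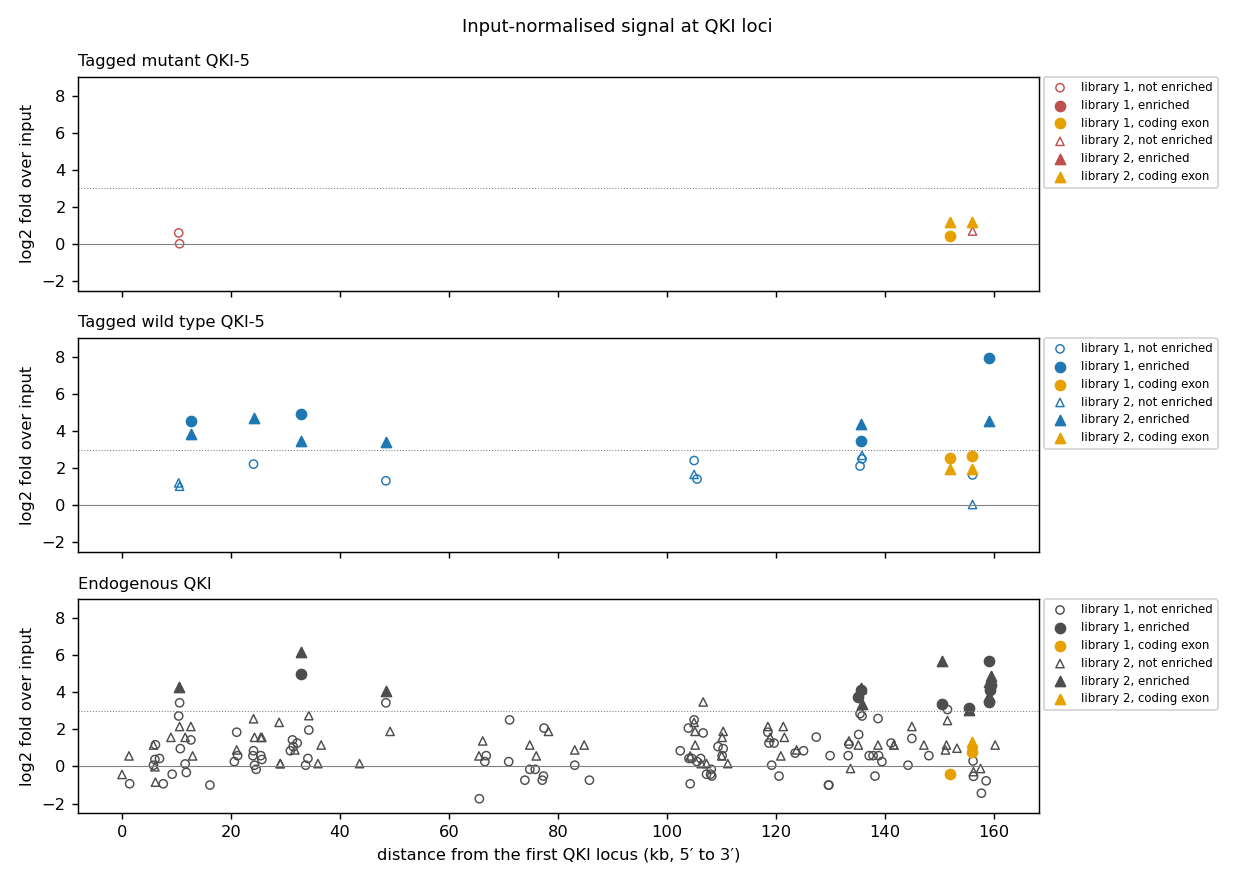
Log2 fold over input (vertical axis) of every listed QKI locus against its distance from the first locus in kb (horizontal axis), in panels for mutant, wild type and endogenous libraries. Circles are library 1, triangles library 2, filled symbols are enriched loci, orange symbols are coding exon loci whether enriched or not, and the dotted line marks a log2 fold of 3. No mutant point reaches the dotted line, while wild type points reach 7.92 and endogenous points 6.16.

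Outside coding exons, wild type QKI-5 and endogenous QKI had enriched loci on the QKI transcript, and mutant QKI-5 had none in either library. Of these 137 loci, mutant libraries had 0 and 0 enriched, wild type libraries 4 and 6, and endogenous libraries 9 and 10. The exact Clopper-Pearson 95% interval of each mutant count reaches up to 2.66%. In wild type the enriched loci were 2.92% (interval 0.801% to 7.31%) and 4.38% (1.62% to 9.29%), and in endogenous libraries 6.57% (3.05% to 12.1%) and 7.30% (3.56% to 13.0%). Over all 493706 loci, the enriched share was 0.00972% and 0.0488% for mutant libraries, 0.886% and 0.928% for wild type libraries, and 2.64% and 2.16% for endogenous libraries. Since so few loci of any gene were enriched in mutant libraries, a count of 0 at QKI is near the background and is not a result about QKI. The mean count was 0 in mutant and 5.0 ± 1.41 in wild type (SD, n = 2), a difference of −5.0. The exact two-sided permutation test gave p = 0.33, the smallest that 2 libraries against 2 allow.

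Mutant libraries also listed fewer of these loci at all. Outside coding exons the mutant libraries listed 2 and 1 of the 137 loci, and the wild type libraries 11 and 11. The groups did not overlap, with means of 1.5 ± 0.707 in mutant and 11 ± 0 in wild type (SD, n = 2 each, exact permutation p = 0.33). Over all loci, 9.43% and 11.0% were listed in mutant and 18.2% and 19.2% in wild type libraries. The mutant clusters in question were weak: library 1 had log2 folds of 0.61 and 0.02 at neighbouring distal intron loci that start at 163846085 and 163846285, and library 2 had 0.70 at the 3′ UTR locus 163991848 to 163991897. The last of these clusters begins inside the last coding exon, where plasmid and gene RNA cannot be told apart. Wild type had 1.63 and 0.04 at that locus, so the mutant value lay between the wild type values.

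By region of the transcript, enrichment lay in introns and in the 3′ UTR. Among the 115 distal intron loci, mutant libraries had 0 and 0 enriched, wild type libraries 3 and 5, and endogenous libraries 3 and 5. Among the 16 loci in the 3′ UTR, the mutant counts were 0 and 0, the wild type counts 1 and 1, and the endogenous counts 5 and 4. Of the 4 proximal intron loci, endogenous libraries had 1 and 1 enriched, and mutant and wild type libraries none. The 5′ UTR locus and the splice site locus were enriched in no library.

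The authors' deposited lists of peaks reproducible between the libraries of a group hold 0 QKI peaks among 55 for mutant, 5 among 3671 for wild type (0.136%) and 9 among 12409 for endogenous (0.0725%). These peaks fell on 0, 4 and 9 of the QKI loci. In the authors' deposited table the highest QKI fold in wild type was a log2 value of 6.25, at 163994801 to 163994871 in the 3′ UTR. The highest endogenous QKI fold in the authors' deposited table was 5.58, at 163868443 to 163868634 in a distal intron.

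The intron locus at 163868443 to 163868635 was enriched in both wild type and both endogenous libraries. It was not listed in either mutant library. Its log2 fold was 4.90 and 3.44 in wild type, against 4.96 and 6.16 in endogenous libraries, and its −log10 p was 8.60 and 4.98 in wild type, against 20.5 and 21.5 in endogenous libraries. Wild type averaged 4.17 ± 1.04 and endogenous 5.56 ± 0.85 (SD, n = 2 each). Both wild type values lay below both endogenous values, by a margin smaller than the spread within either group.

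A pair of further distal intron loci lay close together, in the 3′ part of the gene. The locus at 163971269 to 163971451 was not listed in mutant libraries, and had log2 folds of 3.46 and 4.39 in wild type, against 4.09 and 4.21 in endogenous libraries. All 4 of these values passed the thresholds, and the groups overlapped, with means of 3.93 ± 0.66 in wild type and 4.15 ± 0.08 in endogenous libraries (SD, n = 2 each). The next locus, 163971504 to 163971681, was again not listed in mutant libraries, with 2.50 and 2.69 in wild type, against 2.72 and 3.37 in endogenous libraries. Only endogenous library 2 put it past the log2 fold of 3.

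At the distal intron locus 163848328 to 163848510 the order of wild type and endogenous was the other way. It was not listed in mutant libraries. Its log2 fold was 4.54 and 3.83 in wild type (4.19 ± 0.50), against 1.43 and 2.15 in endogenous libraries (1.79 ± 0.51, SD, n = 2 each). Both wild type values lay above both endogenous values, and neither endogenous library called it enriched. Of the 4 QKI loci enriched in both wild type libraries, 1 was enriched in no endogenous library, namely this one. Over all genes the same held for 22.0% of 2474 loci.

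The locus 163846085 to 163846284, upstream of it, carried an endogenous reproducible peak. The log2 fold was 0.61 in mutant library 1, 1.21 in wild type library 2, and 2.72 and 4.27 in endogenous libraries. The other mutant and wild type library did not list it. Endogenous averaged 3.49 ± 1.10 (SD, n = 2), and both endogenous values stood above each tagged value.

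The strongest wild type signal on the QKI transcript lay in the 3′ UTR, at 163994728 to 163994900. Mutant libraries did not list it. Its log2 fold was 7.92 and 4.55 in wild type, against 5.67 and 4.52 in endogenous libraries, and its −log10 p was 78.1 and 32.4 in wild type, against 70.0 and 36.3 in endogenous libraries. The groups overlapped, with means of 6.23 ± 2.39 in wild type and 5.10 ± 0.81 in endogenous libraries (SD, n = 2 each). The 2 wild type libraries differed by more here than the 2 endogenous ones.

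Directly downstream lay 3′ UTR loci that endogenous libraries listed and none of the 4 tagged libraries did. At 163994901 to 163994961, which abuts the strongest wild type locus without sharing a base, the endogenous log2 folds were 3.45 and 3.81. At 163995140 to 163995211 they were 4.39 and 4.85. Between these, at 163995037 to 163995084, endogenous library 1 had 4.09 and library 2 listed no cluster. The 3 loci with reproducible endogenous peaks in this stretch, counting the strongest wild type locus, span 484 bases and begin 2984 bases after the last coding base at 163991743.

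A further 3 endogenous loci near the 3′ end were listed in no tagged library. The locus at 163986196 to 163986396 is annotated as 3′ UTR and ends 1393 bases before a coding exon locus. Endogenous libraries had log2 folds of 3.37 and 5.65 (4.51 ± 1.62, SD, n = 2), and neither mutant nor wild type libraries listed it. In the proximal intron, 369 bases before the last coding exon, the locus at 163991258 to 163991356 had 3.14 and 3.02 in endogenous libraries. A 3′ UTR locus at 163987240 to 163987306 reached 3.06 and 2.47 in endogenous libraries and was enriched in neither. It was on no reproducible peak, so it lies outside the naming rule given below.

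**Figure D2:**
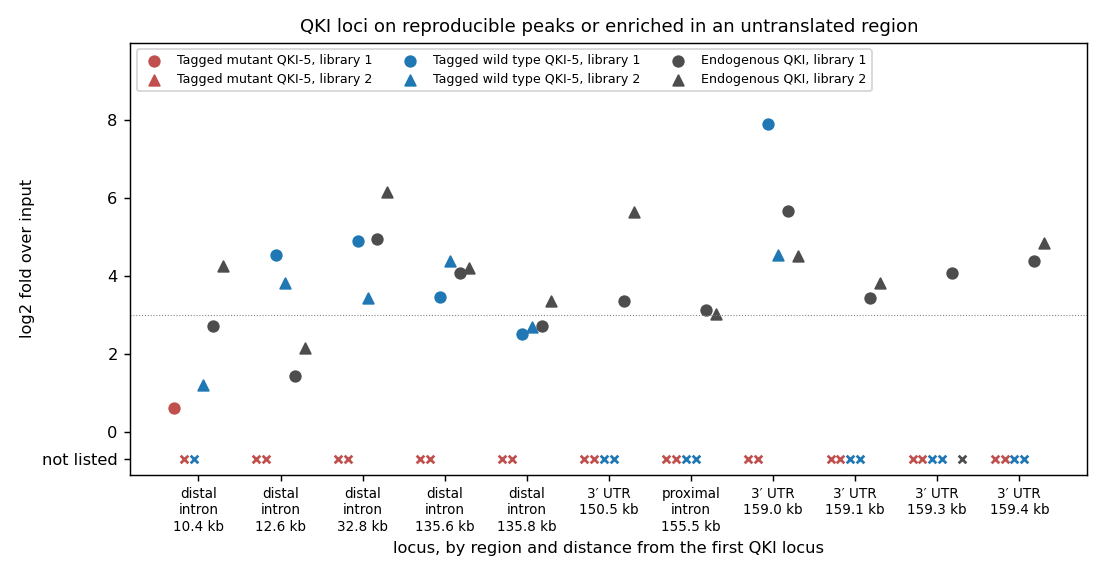
Log2 fold over input (vertical axis) of the 11 named QKI loci outside coding exons, in their order along the transcript (horizontal axis, region and distance from the first locus in kb), in each mutant (red), wild type (blue) and endogenous (grey) library. Crosses at the bottom mark libraries that did not list the locus, and the dotted line a log2 fold of 3. Mutant libraries list 1 of these loci, at 0.61, while the 3′ UTR locus at 163994728 reaches 7.92 in wild type and 5.67 in endogenous libraries.

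Taking the 7 QKI loci enriched in both endogenous libraries, 0 were enriched and 0 were listed in any mutant library. Over the 8000 such loci of all genes, 0.237% were enriched and 20.2% listed in at least 1 mutant library. In wild type libraries 3 of the 7 QKI loci (42.9%) were enriched in both, against 20.6% over all genes, and 4 of the 7 (57.1%) were listed in neither, against 7.01% over all genes. The 3 shared loci are the introns at 163868443 and 163971269 and the 3′ UTR locus at 163994728. The 4 unlisted ones are the upstream 3′ UTR locus, the proximal intron locus and the 3′ UTR loci at 163994901 and 163995140. Of these, the locus at 163994901 abuts the shared locus at 163994728 and counts apart only because merging required a shared base. With 7 loci these shares are a description, and their difference from all genes was not tested. Mean log2 fold over the 3 loci listed in wild type was 5.43 and 4.13 in wild type (4.78 ± 0.92), against 4.91 and 4.97 in endogenous libraries (4.94 ± 0.04, SD, n = 2 each), and the groups overlapped. This comparison leaves out the 4 loci that wild type did not list, so the overlap holds only for loci selected as present in both groups. Over all 7 loci the endogenous means were 4.15 and 4.61 (4.38 ± 0.32, SD, n = 2). Mutant libraries gave no mean, since they list none of the 7. With unlisted loci set to 0 the wild type means were 2.33 and 1.77.

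Differences at single loci were tested with limma over all loci with values in each of the 4 libraries compared. Between mutant and wild type 2741 loci qualified, of which 0 were higher (0.0%, 145 at an unadjusted p under 0.05) and 65 lower (2.37%, 272 unadjusted) in mutant after Benjamini-Hochberg adjustment. Only 1 QKI locus qualified, a coding exon, and it was not called. The intron and 3′ UTR loci could not enter because no such locus was listed in both mutant libraries.

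Between wild type and endogenous, 29671 loci qualified, of which 158 (0.533%) were higher and 2279 (7.68%) lower in wild type. With each library centred on its median the split was 449 higher (1.51%) and 399 lower (1.34%), and the median difference over all loci moved to 0.10 from −0.62. Of 9 QKI loci tested, 1 was called, the intron locus at 163848328, higher in wild type by a log2 value of 2.40 (SE 0.67, limma adjusted p = 0.0380), or 3.12 after centring (adjusted p = 0.0215). This call rests on each of 3 libraries: the adjusted p was 0.139 without wild type library 1, 0.181 without endogenous library 1 and 0.0742 without endogenous library 2. The 9 QKI differences had a median of −0.22 with 4 above 0, and after centring a median of 0.49 with 7 above 0. The 3′ UTR locus at 163994728 differed by 1.13 (SE 0.89, limma adjusted p = 0.447), and the intron loci at 163868443 and 163971269 by −1.39 (adjusted p = 0.233) and −0.22 (adjusted p = 0.866). Calls moved with single libraries elsewhere too. Without wild type library 2, limma called the locus at 163994728 (2.82, adjusted p = 0.0428), and without wild type library 1 it called the intron locus at 163859877 (3.02, adjusted p = 0.0294, against 1.77 and an adjusted p of 0.189 with all 4 libraries).

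A further 3 QKI loci, outside the naming rule and chosen after their values were seen, were enriched in 1 library of a group and not in the other. The intron locus at 163859877 to 163859956 had 2.22 and 4.73 in wild type, against 0.84 and 2.56 in endogenous libraries. The intron locus at 163884134 to 163884288 had 1.32 and 3.39 in wild type, against 3.43 and 4.09 in endogenous libraries. Wild type library 2 passed the thresholds at both loci and endogenous library 2 at 163884134, while library 1 of either group passed at neither. The intron locus at 163970881 to 163970953 was enriched in endogenous library 1, at 3.72, had 1.15 in endogenous library 2, and was listed in no tagged library. Endogenous library 1 gave the same log2 fold of 3.43 and −log10 p of 2.88 at 163884134 and at 163846285, and neither locus passed the −log10 p threshold in that library.

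The 2 coding exon loci had moderate folds with the highest −log10 p the files allow in wild type, and lower folds in mutant where listed. They are only the coding exon stretches with an endogenous cluster, so the values do not speak for other QKI coding exons. No coding exon locus was enriched in any of the 6 libraries (difference between mutant and wild type 0, exact permutation p = 1.0), since no fold reached 3. At 163987790 to 163987822 the log2 fold was 0.46 and 1.21 in mutant and 2.56 and 1.93 in wild type, with the wild type −log10 p at the cap of 400 in both libraries. Endogenous library 1 had −0.42 there and library 2 listed no cluster. Mutant averaged 0.84 ± 0.53 and wild type 2.25 ± 0.45 (SD, n = 2 each), and both mutant values lay below both wild type values, as at 21.6% of the 2741 loci. In limma the difference was −1.41 (SE 0.51, adjusted p = 0.252, between 0.134 and 0.797 over 10 other settings).

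The other coding locus, 163991708 to 163991799, covers the last coding exon, which starts at 163991726 and holds 18 coding bases before the 3′ UTR. The log2 fold there was 1.18 in mutant library 2, 2.66 and 1.94 in wild type (2.30 ± 0.50), against 0.79 and 1.31 in endogenous libraries (1.05 ± 0.37, SD, n = 2 each). Mutant library 1 did not list it, and the wild type −log10 p was again 400 in both libraries. Both wild type values exceeded both endogenous values, but limma did not call the difference of 1.25 (adjusted p = 0.242).

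Across the QKI span the tagged libraries also listed clusters that abut one another in short blocks. Of the clusters in the QKI span, 13 of 16 and 36 of 41 in mutant and 14 of 32 and 25 of 43 in wild type lay on no QKI locus, and none of these was enriched. Tagged clusters on and off QKI loci formed 8 blocks of at least 4 clusters and 75 to 277 bases, a grouping chosen after the data were seen. A block was kept only if some cluster had a −log10 p of at least 3 and no cluster was enriched. The enriched wild type loci could therefore not appear among the blocks. Of these 8 blocks, only the last 2 overlapped QKI loci, annotated as coding exon, or as coding exon and 3′ UTR. Whether the other 6 blocks are exons was not determined here.

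At the block edges, cluster ends were shared to the base between libraries. The block at 163987753 to 163987827, around the first coding locus, began at the same base in all 4 tagged libraries. Its log2 fold was 0.67 and 1.21 in mutant and 2.56 and 1.93 in wild type. The block at 163984475 to 163984751 ended at the same base in all 4, and its log2 fold was 0.65 and 0.95 in mutant and 1.31 and 0.81 in wild type, so the groups overlapped. The block at 163956013 to 163956157 overlapped too, with 0.27 and 1.03 in mutant and 1.00 and 0.89 in wild type. In the first block along the gene, 163836222 to 163836368, mutant library 2 had 0.71 and wild type library 2 had 0.14. These blocks exclude any with an enriched cluster. Among them, only those at the coding exon loci had both wild type values above every mutant value listed. Whether the other blocks are coding exons too was not determined, so this does not set coding exons against other sequence.

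**Figure D3:**
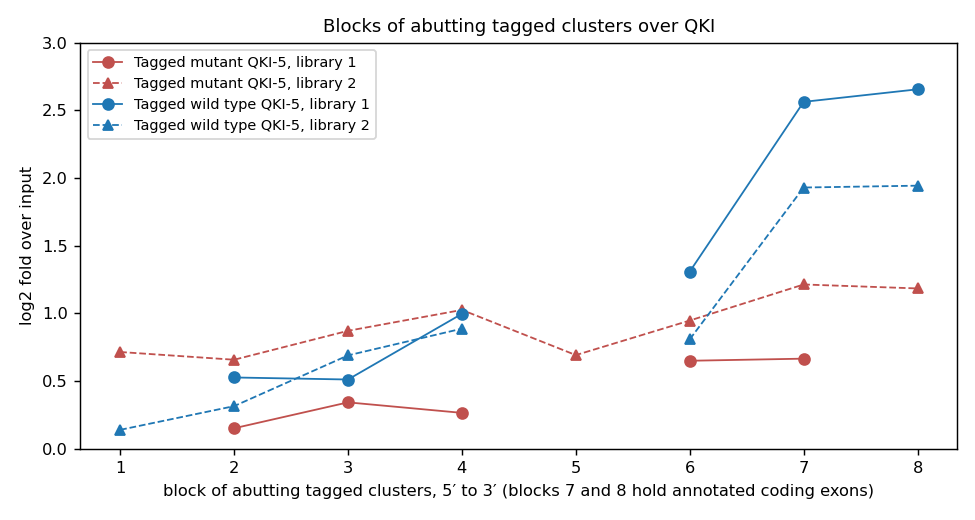
Log2 fold over input (vertical axis, the cluster with the highest −log10 p) of the blocks of abutting tagged clusters, numbered in their order along the gene, in each mutant (red) and wild type (blue) library, with a gap where a library listed none. Blocks with an enriched cluster were left out. The blocks at the coding exon loci reach 2.56 and 2.66 in wild type, and mutant values stay at or below 1.21.

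Among all genes, QKI was well up in the number of enriched endogenous loci. Its 7 loci enriched in both endogenous libraries were 5.04% of its 139, where 1.62% of all loci were. Of 20882 gene names, 3797 had at least 1 such locus, 131 had more than QKI and 51 others had as many. Among the 1169 genes with at least 100 loci the median share was 1.34% (quartiles 0.725% and 2.34%), and 39 had a higher share than QKI. With 4 loci enriched in both wild type libraries, where 0.501% of all loci were, QKI was exceeded by 31 genes. No QKI locus was enriched in both mutant libraries, and over all loci 0.00284% were. Of the 386 genes with at least 5 loci enriched in both endogenous libraries, 28 had a higher share of them enriched in both wild type libraries than the 42.9% of QKI, and the median was 20.0%.

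**Figure D4:**
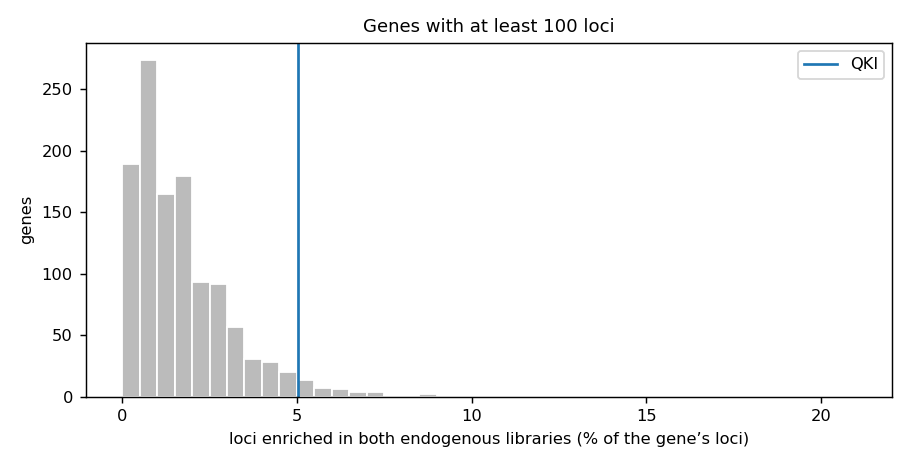
Number of genes (vertical axis) by the percent of a gene's loci enriched in both endogenous libraries (horizontal axis), for the 1169 genes with at least 100 loci, with QKI as a vertical line. QKI stands at 5.04%, above the median of 1.34%.

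Likeness between genes was taken only over each gene's loci enriched in both endogenous libraries, so endogenous means are at least 3 by selection. Over all genes, 20.2% of such loci were listed in at least 1 mutant library, so most enter as 0 in mutant. The genes with mean log2 folds most like those of QKI over the 6 libraries, by Euclidean distance with unlisted loci set to 0, were MORF4L2 (distance 0.286, 5 loci), ERBB4 (0.293, 6 loci), LINC00669 (0.306, 19 loci), MIR924HG (0.336, 20 loci) and RANBP17 (0.349, 7 loci). ERBB4 encodes a receptor tyrosine kinase and MORF4L2 a chromatin-associated protein. Likeness was measured in the mean and does not speak for single loci. Of the 7 QKI loci, 3 were enriched in both wild type libraries. The same held for 1 of 5 MORF4L2 loci, 0 of 6 for ERBB4 and 3 of 19 for LINC00669. For MIR924HG it held for 3 of 20 and for RANBP17 for 0 of 7.

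Other genes of the same family and function had their own loci. Of 4 STAR family genes, SF1, which encodes the branch point binding protein, had 1 of 26 loci enriched in both endogenous libraries, KHDRBS1 (Sam68) had 1 of 40, KHDRBS3 had 0 of 102 and KHDRBS2 had no locus. None had a locus enriched in both libraries of mutant or of wild type, and limma called 1 of 3 tested loci lower and none higher in wild type than in endogenous. Among 15 other splicing regulators, 0 of 1095 loci were enriched in both mutant libraries, 11 (1.00%) in both wild type libraries, over 5 genes, and 32 (2.92%) in both endogenous libraries, over 9 genes. Over all loci these shares were 0.00284%, 0.501% and 1.62%. RBFOX2 had 8 of 314 and MBNL1 8 of 188 in endogenous libraries, each 1 more than QKI but from more loci. Limma called 0 of the 11 loci of this list tested between mutant and wild type, and 0 higher and 10 lower (8.20%) of 122 between wild type and endogenous, near the 7.68% lower over all loci.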

How the data were processed

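Per the submitters' processing notes, the build was hg19 and the tools included STAR, SAMtools, cutadapt and UMI-tools. The sources used here name neither their versions nor the peak caller. Each library has its own cluster list, and the 6 input libraries enter only through the fold. Per the file headers, the deposited clusters are input-normalised: each has the authors' log2 fold over its input and the authors' −log10 p-value, which is capped at 400. Of the endogenous clusters, 155229 and 33333 have a log2 fold of 0 or less, and none of the tagged ones do.

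The 616191 endogenous clusters were merged into loci where, on 1 strand, they overlapped by 1 base or more. A library's value at a locus is its overlapping cluster with the highest −log10 p. Named loci were those on a reproducible peak, those in exons or UTRs enriched in at least 1 library, and those past limma's threshold (adjusted p of 0.05). Likeness took the 5 nearest genes with at least 5 loci enriched in both endogenous libraries, over those loci. Members and lists were chosen with earlier results of these data known.

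Single loci were tested with limma 3.58.1 (lmFit and eBayes) in R 4.3.3, with Benjamini-Hochberg adjustment over all loci tested, and libraries with exact two-sided permutation tests. Python 3.11.15, pandas 2.3.3, numpy 2.4.6, scipy 1.17.1 and bedtools 2.31.1 were used. On simulated shifts, limma called for mutant against wild type (2741 loci) 10% at a log2 shift of 1, 78% at 2, 98% at 3 and 100% at 4, with 11 of 2541 unshifted loci. For wild type against endogenous (29671 loci) it called 0% at 1, 10% at 2, 58% at 3 and 98% at 4, with 3 of 29471 unshifted loci. The 95% Clopper-Pearson intervals are exact and reflect counting error alone. Alternatives tried were other thresholds, overlap and cluster rules, centring, filters, other regions, a replicate block and leaving out each library.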

Additional observations from a re-analysis of the deposited data

How the results depend on the processing

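Each group has 2 libraries, so an exact test over libraries cannot go below p = 0.33. Depth is unknown, and so is the number of reads behind each fold. Over all settings tried, 125 values kept their direction and side of the threshold or moved by less than the spread between libraries. A further 7 moved, 5 reversed, 3 lost and 2 gained a call. Part of the 125 could not have changed. Leaving out a mutant library cannot move a wild type mean, and stricter thresholds cannot lower a count of 0. A number of calls could also stay the same while the called locus changed. The tally is therefore no measure of robustness. The count of enriched loci outside coding exons was 0 in mutant libraries in every setting tried, and its difference between mutant and wild type lay between −6.0 and −4.0 without single libraries. It was −3.0 (0 and 0 in mutant, 3 and 3 in wild type) with the fold threshold at 4 and −4.0 with the −log10 p threshold at 5. It was −5.0 without the 3′ UTR locus next to the last coding exon, a setting added after seeing the data. That locus was enriched in no library, so leaving it out could not change the count. With the fold threshold at 2 the coding exon difference was −1.0 (0 and 0 in mutant, 2 and 0 in wild type). The wild type mean at the loci enriched in endogenous libraries was 2.05 with unlisted loci as 0, and 3.65 to 5.43 without single libraries. Between mutant and wild type, limma called 0 QKI loci whichever single library was left out. With unlisted loci as 0 it called 3, but no mutant library lists any of these 3, so wild type is set there against imputed constants and this is no test of mutant. Between wild type and endogenous it called 0 to 2 without single libraries. Where 1 library was left in a group, limma assumes that it varies like the other group. The call at 163848328 was lost without wild type library 1, endogenous library 1 or endogenous library 2. Differences that changed sign, none of them called, were those at 163940736 (0.32), 163971269 (0.49) and 163971504 (0.27) after centring, and those at 163971269 (0.24) and 163994728 (−0.55) without wild type library 1. Without single libraries these 2 lay between −0.69 and 0.24 and between −0.55 and 2.82, where 2.82 passed the threshold. The cause was not tested. Same-numbered libraries did not deviate together over loci (correlations of −0.0812 and 0.0104). These correlations cannot show whether such libraries shared a culture or batch, and the labels do not say. With the replicate number as a block, limma called 0 QKI loci between mutant and wild type (adjusted p = 0.332) and 1 between wild type and endogenous (adjusted p = 0.0138), with 52 lower and 0 higher, and 3771 lower and 321 higher, over all loci. The number of loci tested differs between settings. Mutant against wild type gave 107 lower and 6 higher of 1134 after the filter on −log10 p, 107 and 0 of 1429 with the spread of all 6 libraries, 118 and 5 of 6753 without mutant library 1, 23 and 0 of 6547 without mutant library 2, 33 and 0 of 5355 without wild type library 2, and 32 and 1 of 5356 over regions merged from the 4 libraries. Wild type against endogenous gave 175 lower (17.3%) and 8 higher of 1009 with the spread of all 6 libraries, 389 and 11 of 33500 without endogenous library 1, 857 and 72 of 39576 without endogenous library 2, and 1605 and 94 of 40970 without wild type library 2. The spread shared by all 6 libraries could test no QKI locus and gives no value for QKI.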
